A study of Homo sapiens with 16 samples.

Results

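The regions described here carried a peak of open chromatin in all 3 treated peak lists of a glioblastoma series and in none of the vehicle list. Peaks of the 4 lists on chromosomes 1 to 22 and X were merged wherever they overlapped by at least 1 bp, which gave 183659 merged regions. Of these, 6723 (3.66%) held a peak of Asi_Bel, of Asi_DMSO and of Control_Bel and no peak of Control_DMSO, and they are called treated-only regions. Because 94332 regions held a peak of every list and could not have this pattern, most shares below are taken over the 89327 regions that were not in every list, of which the treated-only regions made up 7.53%. The regions were chosen by presence or absence of a peak in these same lists, so the counts and peak strengths are given as a description.

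All 16 libraries came from U87, an established human glioblastoma line, and fall into 4 groups of 4. The Asi_Bel group carries AsiDNA with belinostat, the Asi_DMSO group AsiDNA with the solvent DMSO, the Control_Bel group belinostat without AsiDNA, and the Control_DMSO group, called vehicle here, the solvent without either drug. The belinostat groups received 1 µM of the drug over 24 h. No dose is labelled for AsiDNA, and the protocols speak of MTU87 and LTAU87 cells while the sample fields name U87, so how the AsiDNA groups were exposed cannot be told from the sources used here. The series asks whether AsiDNA and belinostat change chromatin accessibility across the genome. Each group has 1 peak list, so no value has a replicate spread, no test between groups was possible and no p-value was computed. Ranges given beside shares are Wilson 95% intervals. They cover counting error alone, and read depth is unknown.

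Belinostat is a hydroxamate inhibitor of the zinc-dependent histone deacetylases, the enzymes that take acetyl groups off histone tails, and acetylated histones are a known feature of open promoters and enhancers. AsiDNA, a small DNA duplex built to look like a double-strand break, draws repair enzymes away from the breaks of the cell. NicE-seq marks open chromatin with the enzyme Nt.CviPII, which nicks one strand at CCA, CCG or CCT, followed by DNA polymerase I and biotinylated nucleotides. A peak in a promoter, in an intron or between genes therefore reports that the DNA there could be reached by the enzyme, not that a gene was transcribed.

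The 4 lists were close in length, with 134865 peaks in Asi_Bel, 138273 in Asi_DMSO, 138937 in Control_Bel and 130318 in Control_DMSO, the shortest. Among cell type markers, the mesenchymal glioma genes VIM, CD44, FN1, CHI3L1 and TIMP1 had a peak within 1000 bp of a gene end in each list. The same held for 4 of 5 neural genes, GFAP having none, and for 2 of 7 genes of other cell types, CD3E and KRT8. CDKN2A and CDKN2B, which are deleted in U87, had no such peak in any list. The marker results were the same in all 4 lists.

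Promoters come first because they show the sequence that was open. RefSeq promoter windows of 300 bases (250 before and 50 after a gene start, build GRCh38.p14) numbered 34961 on the chromosomes used, and 171 of them (0.489%) were covered by treated-only regions and by no other region. Of the 171 windows, 96 belonged to protein-coding genes and 75 to long non-coding RNAs, and 71 were covered whole. Below are 4 of them, each holding a motif match, in lower case with the matches in capitals. They do not represent the 171 windows. Counting each region once, LOC105369341 and LINC02134 rank among the 5 strongest windows. Those of NQO1-AS1, LOC124902786 and SMIM34, also among these 5, held no match and are not shown. TSC22D1 and MRS2 are the strongest windows of protein-coding genes after SMIM34, added after their values were seen. DNAJB13, the next of these, was added likewise, held no match and is not shown.
LOC105369341, chr11:64420156-64420455, - strand: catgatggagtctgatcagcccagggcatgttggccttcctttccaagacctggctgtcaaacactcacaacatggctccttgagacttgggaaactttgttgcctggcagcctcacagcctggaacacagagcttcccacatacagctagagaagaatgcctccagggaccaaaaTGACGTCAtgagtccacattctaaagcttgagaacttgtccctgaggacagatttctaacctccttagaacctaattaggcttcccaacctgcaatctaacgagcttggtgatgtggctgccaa
LINC02134, chr16:47965439-47965738, + strand: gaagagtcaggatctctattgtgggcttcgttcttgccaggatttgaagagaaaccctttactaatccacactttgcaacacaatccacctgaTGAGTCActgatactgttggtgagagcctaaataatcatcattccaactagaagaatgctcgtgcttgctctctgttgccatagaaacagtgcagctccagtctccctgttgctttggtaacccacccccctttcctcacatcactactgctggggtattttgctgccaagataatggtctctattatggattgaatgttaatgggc
TSC22D1, chr13:44474292-44474591, - strand: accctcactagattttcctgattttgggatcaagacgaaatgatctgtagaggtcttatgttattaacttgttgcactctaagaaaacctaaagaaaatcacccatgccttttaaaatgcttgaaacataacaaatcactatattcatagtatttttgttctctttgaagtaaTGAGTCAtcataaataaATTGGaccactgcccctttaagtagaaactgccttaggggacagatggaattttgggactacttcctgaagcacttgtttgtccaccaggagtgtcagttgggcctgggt
MRS2, chr6:24402686-24402985, + strand: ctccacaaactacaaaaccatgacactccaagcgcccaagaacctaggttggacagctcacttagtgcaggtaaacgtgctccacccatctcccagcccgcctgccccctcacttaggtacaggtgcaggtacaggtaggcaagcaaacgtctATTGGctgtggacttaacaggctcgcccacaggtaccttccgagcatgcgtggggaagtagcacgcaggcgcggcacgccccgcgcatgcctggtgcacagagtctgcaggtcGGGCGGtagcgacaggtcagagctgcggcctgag

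The windows of LOC105369341 and LINC02134, both long non-coding RNAs, lay whole inside their regions. The region at LOC105369341 had fold enrichments of 8.58 in Asi_Bel, 6.51 in Asi_DMSO and 10.8 in Control_Bel, and its capitals mark a cyclic AMP response element, the site of CREB and ATF factors. The region at LINC02134 had folds of 12.8, 5.68 and 10.5 in the same order, and its capitals mark a site of AP-1, the FOS and JUN dimer. TSC22D1 encodes a leucine-zipper regulator induced by TGF-beta. The window shown is an inner start among the 5 windows listed for the gene, its region covered 248 of the 300 bases with folds of 6.35, 5.52 and 7.84, and the capitals mark an AP-1 site and a CCAAT box. MRS2 encodes the magnesium channel of the inner mitochondrial membrane. Its region of 849 bp, at chr6:24402704-24403552, covered 282 bases of the window with folds of 5.77, 5.61 and 6.72, and the capitals mark a CCAAT box and a GC box.

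By base content the treated-only promoters were like the promoters of other regions that some lists lacked. Their median GC content was 57.0%, with a median of 7 CpG sites and 38 nicking sites a window. The 1479 windows covered by other regions that were not in every list had 56.0%, 7 and 37. The 15965 windows covered by regions of every list had 65.3%, 26 and 45, and the 17346 windows without any region 50.3%, 4 and 31. The AP-1 motif TGACTCA, on either strand, was in 16 of the 171 windows (9.36%, interval 5.84 to 14.7), against 9.13% of windows of the other regions not in every list, 5.14% of every-list windows and 4.92% of all windows. The GC box GGGCGG was in 42.7% (35.5 to 50.2), against 37.9% of windows of the other regions not in every list, 68.2% of every-list windows and 45.0% of all. CCAAT was in 38.6% (31.6 to 46.1), against 31.8% for the other regions not in every list and 34.6% of all windows. TATAAA was in 9.94%, against 11.5% for the other regions and 11.5% of all. CACGTG was in 7.02% (4.06 to 11.9), against 5.14% for the other regions and 7.27% of all. The cyclic AMP response element TGACGTCA was in 4 windows (2.34%, 0.913 to 5.86), against 0.947% (0.565 to 1.58) for the other regions, 3.27% of every-list windows and 1.85% of all. All motifs were searched on both strands, and none of the 6 contains another. Windows that overlap were counted separately, so the same site can count more than once and the intervals are likely too narrow. The cyclic AMP response element count includes overlapping windows of LOC105369341, and the AP-1 count overlapping windows of LINC02134 and LOC105371237. The AP-1 share of treated-only promoters thus stood at the level of the other regions that differed between lists.

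Treated-only regions held peaks of low to middling strength. The fold enrichment of a peak over its local background was given by the authors and was used as a percentile within its own list, where a higher percentile is a stronger peak. The median percentile was 32.1 in Asi_Bel, 21.1 in Asi_DMSO and 34.7 in Control_Bel, with median folds of 4.85, 3.97 and 4.87. In regions of every list the medians lay between 62.4 and 65.0. Treated-only regions had a median width of 402 bp, against 587 bp for regions of every list and 230 bp for regions of Control_DMSO only. A merged region spans the peaks of all its lists, so these widths also reflect how many lists held a peak. Regions that lacked another single list were as wide, with medians of 390 bp (Control_Bel missing), 404 bp (Asi_DMSO missing) and 398 bp (Asi_Bel missing). In 6673 of the 6723 each list contributed a single peak.

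The lists did not contribute equally. Asi_DMSO was the weakest of the 3 lists in 58.5% of treated-only regions (57.3 to 59.6), Asi_Bel in 23% (22 to 24.1) and Control_Bel in 18.5% (17.6 to 19.4). Control_Bel was the strongest in 46.7%, Asi_Bel in 33.3% and Asi_DMSO in 19.9%. Over the 6723 regions the percentiles of Asi_Bel and Control_Bel followed each other with a Pearson r of 0.75 and a Spearman rho of 0.73, those of Asi_Bel and Asi_DMSO with 0.40 and 0.41, and those of Asi_DMSO and Control_Bel with 0.39 and 0.39. These are descriptions over regions of the same lists. The list without belinostat was thus the weak one, and the 2 belinostat lists ranked the regions most alike. Correlations were not computed for other sets of regions, so whether that likeness is particular to treated-only regions cannot be told.

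The other 3 sets of regions that lacked a single list were built in the same way. Where Control_Bel was the missing list (4837 regions), Asi_Bel was the weakest in 68.2% (66.9 to 69.5), with a median percentile of 19.4. Where Asi_DMSO was missing (3843 regions), Control_DMSO was the weakest in 61.9% (60.3 to 63.4), at 18.3. Where Asi_Bel was missing (4130 regions), Control_Bel was the weakest in 57.6% (56.1 to 59.1), at 20.3. In all 4 sets the weakest list was the one with the same belinostat treatment as the missing list, so the order of strength among treated-only regions was not particular to them.

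**Figure D1:**
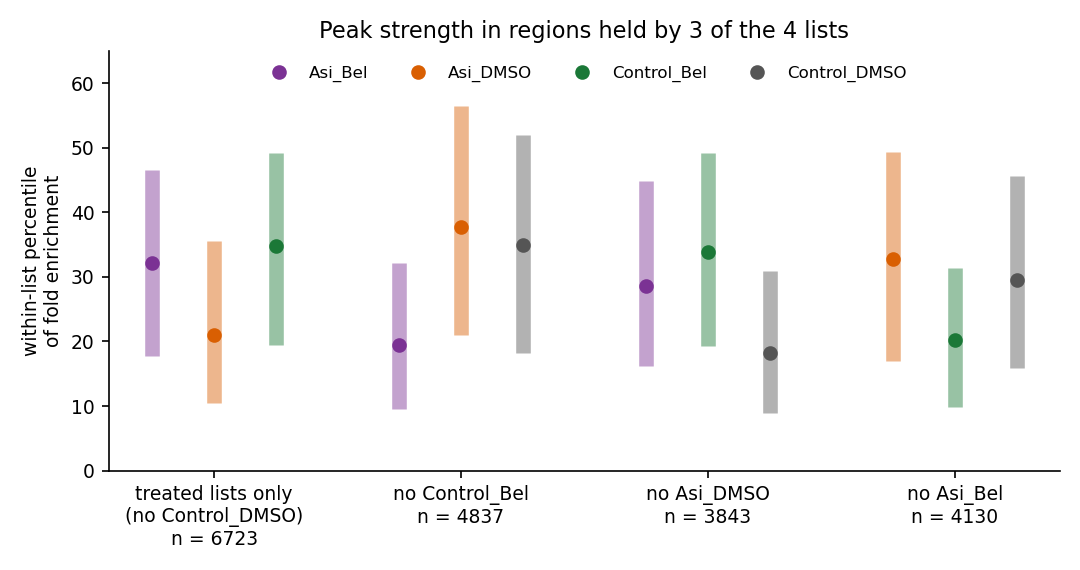
Within-list percentile of fold enrichment (y axis) in regions held by 3 of the 4 lists, with points at the median and bars between the lower and upper quartiles. In treated-only regions the Asi_DMSO median lies at 21.1, below 32.1 in Asi_Bel and 34.7 in Control_Bel, and in each set the lowest point is the list that shares its belinostat treatment with the missing list.

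Few of the regions were strong in every treated list. The lowest percentile over the 3 lists was at least 50 in 197 regions (2.93%), at least 60 in 46, at least 70 in 5 and at least 80 in 1. Near the threshold of the peak caller, which kept peaks down to a −log10 q of 1.3, 107 treated-only regions (1.59%) rested on a treated peak with a −log10 q below 2, and 794 (11.8%) on one below 3. Just outside the set, 68 regions of every list had a Control_DMSO −log10 q below 2 and 608 one below 3. The median over treated-only regions of the lowest −log10 q was 5.58.

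The strongest region stood far above the others. It was 202 bp wide, at chr1:76971215-76971416 in the body of ST6GALNAC5, a sialyltransferase of brain gangliosides, with folds of 26.4 in Asi_Bel, 15.6 in Asi_DMSO and 28.8 in Control_Bel, and the nearest vehicle peak was 9.63 kb away. The next, chr2:44233480-44233885 in PPM1B, a serine/threonine phosphatase, had folds of 10.4, 9.58 and 12.3. A region at chr12:52615475-52616009 in KRT73, a keratin of the hair follicle, had 12, 8.50 and 10.2. No blacklist or input control is given in the sources used here, and how reads were placed in the narrow ST6GALNAC5 region was not tested.

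The remaining 7 of the 10 highest-ranked regions had folds between 7.71 and 11.6 in every treated list. Regions in gene bodies lay in the overlap of CXADR, the coxsackievirus and adenovirus receptor, with BTG3, an antiproliferative protein, in YAF2, a partner of the Polycomb repressive complexes, and in ALG14, an enzyme subunit of N-glycan assembly. Between protein-coding genes they lay 27.3 kb from DNASE2B, a DNase of the lens, 50.0 kb from TRIM39-RPP21, 22.9 kb from BICC1, an RNA-binding protein, and 171 kb from SEMA5A, a semaphorin of axon guidance. The region near BICC1 was the only one of the 10 with a vehicle peak within 5000 bp, at 1.77 kb.

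Most treated-only regions lay away from gene ends. Of the 6723, 5.16% (4.66 to 5.72) were within 1000 bp of either end of a protein-coding gene, 45.1% (43.9 to 46.3) lay in gene bodies and 49.7% (48.5 to 50.9) between genes. The other 82604 regions not in every list had 4.42% (4.28 to 4.56), 43.9% and 51.7%, and regions of every list 13.9%, 42.5% and 43.6%. Of the 3343 between-gene regions, 24.0% (22.5 to 25.4) overlapped a long non-coding RNA gene, against 22.4% for the other regions not in every list. Exons and introns were not used here.

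The median distance of a treated-only region to the nearest gene end was 28.5 kb, against 34.9 kb for the other regions not in every list. Regions that lacked only Asi_DMSO were at 29.0 kb, those that lacked only Asi_Bel at 36.0 kb, those that lacked only Control_Bel at 43.4 kb, regions of Control_DMSO only at 43.7 kb and regions of every list at 24.5 kb. By this median, regions lacking only a list without belinostat lay nearer to gene ends than regions lacking only a list with it. The shares between genes did not follow this order. They were 49.7% for treated-only regions and 51.6%, 50.7% and 52.5% for regions lacking only Asi_DMSO, Asi_Bel and Control_Bel.

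The strand was known for 15812 of the 19974 protein-coding genes, which allowed gene starts and far ends, where transcription stops, to be told apart. A single start was used for each gene, so regions near other listed starts of a gene were not counted as such. Treated-only regions were as frequent near far ends (145 regions, 2.16%, 1.84 to 2.53) as near starts (145 regions, 2.16%, 1.84 to 2.53). The other regions not in every list had 1.55% (1.47 to 1.64) near far ends and 2.09% (1.99 to 2.19) near starts, and regions of Control_DMSO only 1.1% (0.904 to 1.35) and 2.15% (1.86 to 2.48). Regions of every list had 2.24% near far ends and 10.1% near starts. The interval of the treated-only share at far ends lay above that of the other regions not in every list, and overlapped those of regions lacking only Asi_DMSO (1.77%, 1.4 to 2.24), only Asi_Bel (1.57%, 1.24 to 2.00) and, at its edge, only Control_Bel (1.47%, 1.17 to 1.85). Within gene bodies, 26.3%, 26.0%, 25.3% and 22.5% (20.9 to 24.2 for the last) lay in 4 equal parts from start to far end, so the last part held the fewest, against 25.8%, 26.0%, 25.3% and 22.9% for the other regions not in every list.

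**Figure D2:**
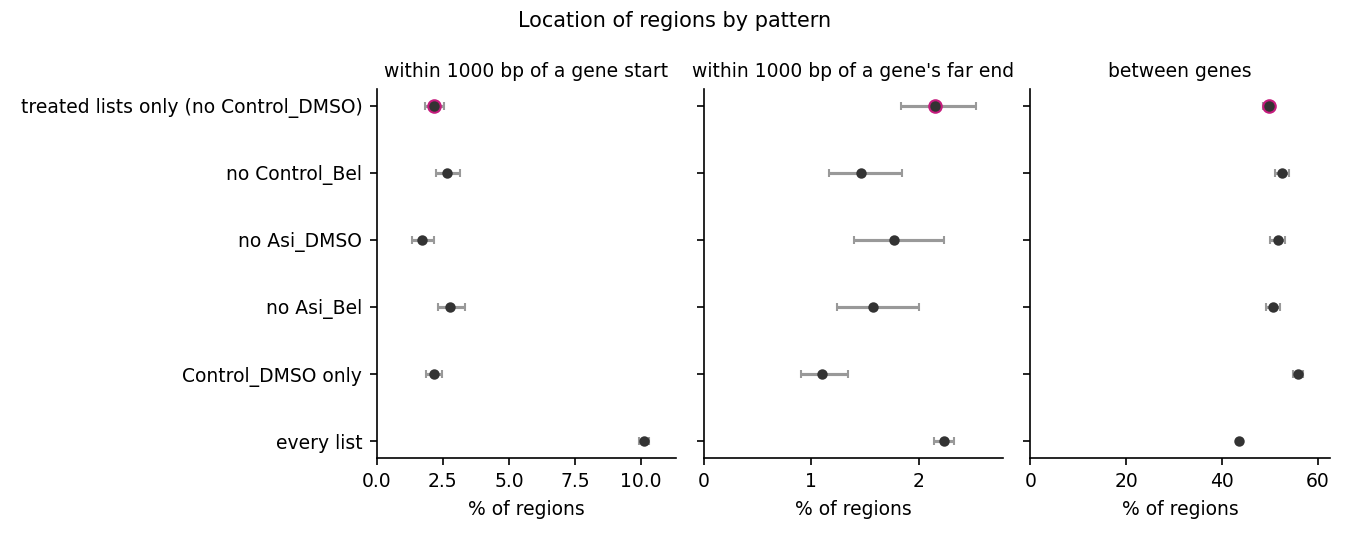
Share of regions (x axes, % of regions, each starting at 0) within 1000 bp of a gene start, within 1000 bp of a gene's far end and between genes, with Wilson 95% intervals, for 6 presence patterns down the page. Treated-only regions, at the top, have 2.16% near far ends, above 1.1% in regions of Control_DMSO only, while their share near starts, 2.16%, is far below 10.1% in regions of every list.

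The 347 regions at gene ends touched 376 genes, 138 at the start, 148 at the far end, 4 at both and 86 where the strand was not known. For 99 of the 376 genes Control_DMSO had another peak within 1000 bp of the same end, so that end was open near by in vehicle too. For 277 it had none. By the lowest percentile the first was LHFPL2, a tetraspan membrane protein, with folds of 8.58 in Asi_Bel, 7.60 in Asi_DMSO and 11.6 in Control_Bel at its far end (chr5:78483821-78484381). METTL9, a histidine methyltransferase, followed with 8.46, 6.93 and 7.27, also at the far end. TRIB3, a stress-induced pseudokinase, had 10.0, 6.54 and 10.8, 947 bp from its start, where Control_DMSO had another peak.

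Among the other 7 highest-ranked genes, CHIT1, a chitinase of macrophages, LURAP1L and NQO1, the quinone reductase of the NRF2 response, had their region at the far end. At NQO1 it lay 57 bp from the end at chr16:69709458-69709786 with folds of 7.75, 6.16 and 7.0, and it also covered 163 bases of the promoter window of NQO1-AS1, an antisense RNA. SMIM34 had its region over the start, with folds of 6.69, 6.31 and 6.26. TCEAL7, the cancer-testis gene CT45A6 and the matrix metalloproteinase gene MMP3 have no strand in the table used, so start and far end cannot be told apart there. CT45 genes are near-identical copies, so reads there can be placed only with uncertainty. At TCEAL7 Control_DMSO had another peak at the same end.

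Most treated-only regions lay further than 1000 bp from any vehicle peak. A Control_DMSO peak lay within 1000 bp of 16.5% of them (15.7 to 17.4), within 500 bp of 7.48% and within 5000 bp of 53.2%, with a median distance of 4.57 kb. In the sets that lacked another single list, a peak of that list lay within 1000 bp in 16.4% (Asi_DMSO missing), 16.5% (Asi_Bel missing) and 19.9% (Control_Bel missing). The rule allows no overlap, so these distances are only partly independent of it and are given without a test.

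Along the chromosomes treated-only regions were mostly single. The region next to a treated-only region was itself treated-only at 4.21% of the neighbouring positions, 1.15 times the 3.66% share over all regions (ratio interval 1.03 to 1.29). The same ratio was 1.00 (0.847 to 1.19) for regions lacking only Control_Bel, 1.01 (0.812 to 1.25) for those lacking only Asi_DMSO, 1.15 (0.955 to 1.39) for those lacking only Asi_Bel and 1.5 (1.39 to 1.61) for regions of Control_DMSO only. In all, 6164 regions had no treated-only neighbour, 270 runs held 2, 5 runs held 3 and 1 run held 4, so that 8.31% of the regions were in runs. The interval of the ratio reached 1 under stricter peak thresholds and under a stricter overlap, as given in the closing section. The nearest other treated-only region was a median of 98.5 kb away, and 8.63% had one within 10 kb.

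The patterns found beside treated-only regions stood close to their shares of all regions. Next to them, regions of Control_Bel only stood at 1.08 times (1.02 to 1.15) their share of all regions, those of Asi_Bel only at 1.08 (1.00 to 1.17) and regions lacking only Asi_DMSO at 1.14 (1.03 to 1.27). Regions of both belinostat lists only stood at 1.05 (0.985 to 1.12), an interval that includes 1. Regions of Asi_DMSO and Control_DMSO only stood at 0.909 (0.841 to 0.982), regions of Control_DMSO only at 0.918 (0.848 to 0.994) and regions lacking only Asi_Bel at 0.886 (0.787 to 0.998). Regions of Asi_DMSO only stood at 0.940 (0.880 to 1.00). The departures from 1 were small in each case.

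**Figure D3:**
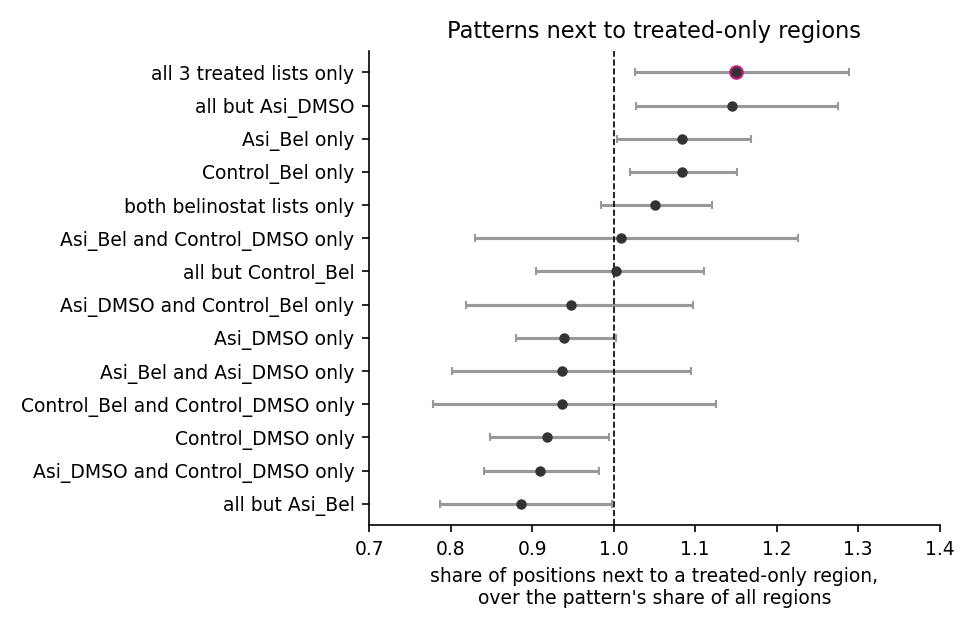
Ratio (x axis) of a pattern's share of the positions next to treated-only regions to its share of all regions, with Wilson 95% intervals, for 14 patterns ordered down the page by the ratio. A dashed line marks 1. Treated-only regions (1.15) and regions lacking only Asi_DMSO (1.14) are at the top, and Control_DMSO-only regions (0.918) are among the lowest.

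The longest run had 4 treated-only regions in succession over 19.5 kb in PVT1 (chr8:127975620-127995124), the long non-coding RNA gene downstream of MYC. Their folds were 4.04 to 5.67 in Asi_Bel, 2.75 to 4.25 in Asi_DMSO and 3.21 to 6.67 in Control_Bel, all of them weak to middling peaks. Of these 4 regions, 2 were lost at a −log10 q of 5 and 1 with lists of equal length, so the run of 4 was not kept under these settings. A run of 3 over 19.7 kb lay between TMEM123 and MMP7, a matrix metalloproteinase gene, at chr11:102476107-102495840, with folds of 4.85 to 7.39, 3.27 to 6.07 and 5.79 to 9.27. The other runs of 3 lay at POP4, a subunit of ribonuclease P (20.4 kb), at ANKRD62 (29.0 kb), in ADAMTS3, a procollagen N-proteinase (38.0 kb), and at EGLN3, an oxygen-sensing prolyl hydroxylase (89.7 kb). In ADAMTS3 the 3 regions had folds of 6.69, 8.54 and 8.77 in Asi_Bel, 3.97, 5.14 and 5.14 in Asi_DMSO and 6.03, 12.1 and 6.03 in Control_Bel.

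Counted in fixed windows of 1 Mb, the highest number was 13, in chr22:35000001-36000000, where RASD2 and RBFOX2, a splicing factor of neurons and muscle, held 2 each. There 21.3% of the 61 regions not in every list were treated-only, beside 5 of Control_DMSO only. Then came 3 windows with 12. In chr1:203000001-204000000 they included 2 in ADORA1, an adenosine receptor, and 1 each in CHIT1 and in OPTC and PRELP, neighbouring genes of matrix proteoglycans. In chr12:52000001-53000000 they included 1 each in 6 genes of the type II keratin cluster (KRT3, KRT7, KRT73, KRT75, KRT79 and KRT80) and 1 in NR4A1. In chr1:17000001-18000000, 4 lay in ARHGEF10L, 2 in PADI1 and 1 in PADI2, enzymes that turn arginine into citrulline. The window with 11, chr5:174000001-175000000, held none in a protein-coding gene. These windows were picked as the highest of many, so their counts are a description.

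By chromosome, the share of regions not in every list that were treated-only ran between 5.71% and 9.29%, around 7.53% over all (7.36 to 7.70). It was highest on chromosome 22 (9.29%, 7.87 to 10.9), on 19 (9.16%, 8.03 to 10.4), on X (8.88%, 7.68 to 10.2) and on 17 (8.79%, 7.83 to 9.84), and chromosomes 4 (8.47%) and 1 (8.28%) also had intervals above 7.53%. Chromosomes 13 (5.71%, 4.93 to 6.60), 15 (6.40%), 9 (6.52%), 7 (6.60%) and 8 (6.62%) had intervals below it. These differences depended on the denominator. As a share of all merged regions (3.66%), only chromosome 4 had an interval above (4.13%, 3.72 to 4.58) and only 13, 15 and 8 had one below. Chromosomes 22 (4.21%, 3.55 to 4.98) and 19 (4.03%, 3.52 to 4.62) then had intervals that include 3.66%. Treated-only regions outnumbered regions of Control_DMSO only 128 to 99 on chromosome 22, whereas on chromosome 13 the counts were 169 and 364. The share of regions not in every list that were treated-only followed gene density (Spearman rho 0.49, Pearson r 0.55), chromosome 4 being gene-poor with a high share. The 23 chromosomes are not independent samples, and the share of all merged regions was not compared with gene density.

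**Figure D4:**
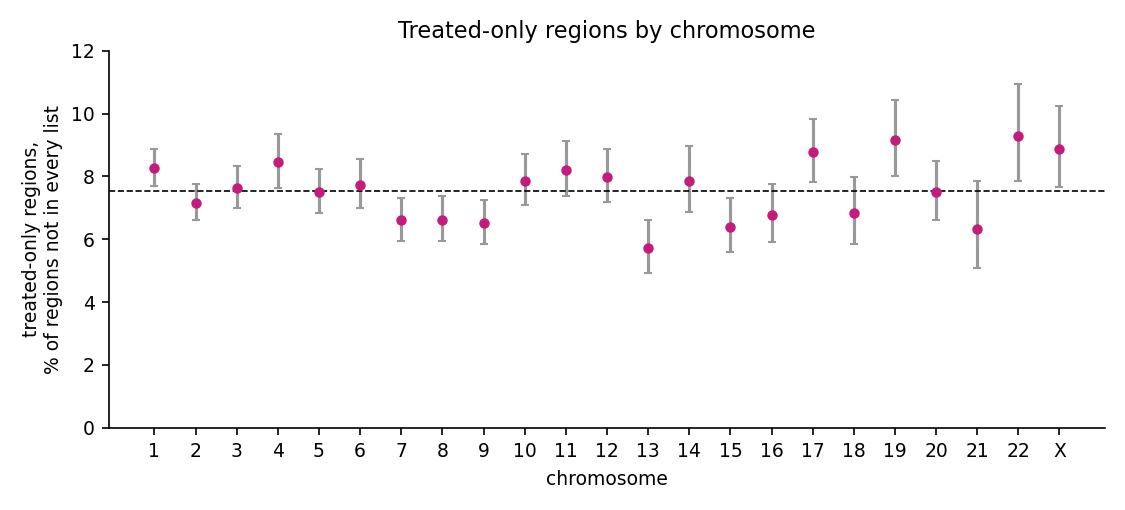
Treated-only regions as a share of the regions not in every list (y axis, %) on each chromosome (x axis), with Wilson 95% intervals and a dashed line at the share over all chromosomes, 7.53%. Chromosomes 22, 19, X and 17 lie highest and chromosome 13, at 5.71%, lowest.

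Host genes were many, with few regions each. The bodies of 2582 protein-coding genes held a treated-only region, 15.4% of the 16764 genes that held any merged region. Of these, 2026 had 1, 413 had 2 and 143 had 3 or more. Host genes had a median length of 99.6 kb, against 25.9 kb for genes with merged regions and no treated-only one, so counts per gene have to be read against the number of regions in the gene. In genes, 3277 of 42049 regions not in every list were treated-only, or 7.79%.

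CDH13, which encodes the adhesion molecule T-cadherin, held the most, 8 of its 115 regions and of its 58 not in every list. The gene spans 1174 kb of chromosome 16. Across its 8 regions the folds ran over 2.48 to 6.46 in Asi_Bel, 2.34 to 6.68 in Asi_DMSO and 3.35 to 5.93 in Control_Bel, and beside them the gene held 7 regions of Control_DMSO only. In place of 8, CDH13 held 4 at a −log10 q of 5 in all lists or with lists of equal length and 3 with that threshold in the treated lists only, where ITPR1, ATP2B2 and other named genes held more. KAZN, a cytoskeletal protein of the desmosome in a gene of 1225 kb, held 6 of 68 not in every list beside 7 of Control_DMSO only. Of all regions in the gene, 6.96% (3.57 to 13.1) in CDH13 and 5.45% (2.52 to 11.4) in KAZN were treated-only, against 3.48% over all genes.

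Among genes with 6, DLGAP4, a scaffold of the postsynaptic density, held 6 of its 30 regions (20.0%, 9.51 to 37.3) and 6 of 16 not in every list. ITPR1, the IP3-gated calcium channel of the endoplasmic reticulum, held 6 of 21 not in every list and no region of Control_DMSO only. ATP2B2, a calcium pump of the plasma membrane, held 6 of 34, and SYN3, a synapsin of synaptic vesicles, 6 of 36, each beside 2 of Control_DMSO only. In ITPR1 the region with the highest fold, at chr3:4712096-4712551, had 9.02 in Asi_Bel, 4.24 in Asi_DMSO and 7.87 in Control_Bel. In ATP2B2 the one with the highest fold, at chr3:10494959-10495516, had 9.99, 4.52 and 8.40. By percentile Asi_DMSO was the weakest list in 5 of the 6 regions of ATP2B2 and in 3 of the 6 of ITPR1, where it was the strongest in 2.

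A further 9 genes held 5 each. They were SCFD2, SH3KBP1, an adaptor of receptor endocytosis, PRELID2, CADPS2, which acts in vesicle release, RARB, a retinoic acid receptor, CSMD2, IQCJ-SCHIP1, ZFHX3, a zinc-finger homeobox factor, and GLIS3, a zinc-finger factor. RARB had 5 of 37 regions not in every list and no region of Control_DMSO only, but only 1 of the 5 was left at a −log10 q of 5. By share of a gene's regions, among genes with at least 4, ADAMTS3 came first with 4 of 15 (26.7%, 10.9 to 52.0) and 4 of 7 not in every list. TRPM1, a cation channel of retina and melanocytes, had 4 of 16, of which 1 was left at a −log10 q of 5, and CLDN10, a tight-junction claudin, had 4 of 24. ADAMTS3 held 4 under every list setting tried. TRIM2, AFF1, a subunit of the super elongation complex, HEMK2, JARID2, which partners Polycomb complex PRC2, and SYNE1, a nuclear envelope linker, had 4 each of 27 to 31. With so few regions a gene the intervals were wide, and genes at the top of such a ranking were picked for their count.

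**Figure D5:**
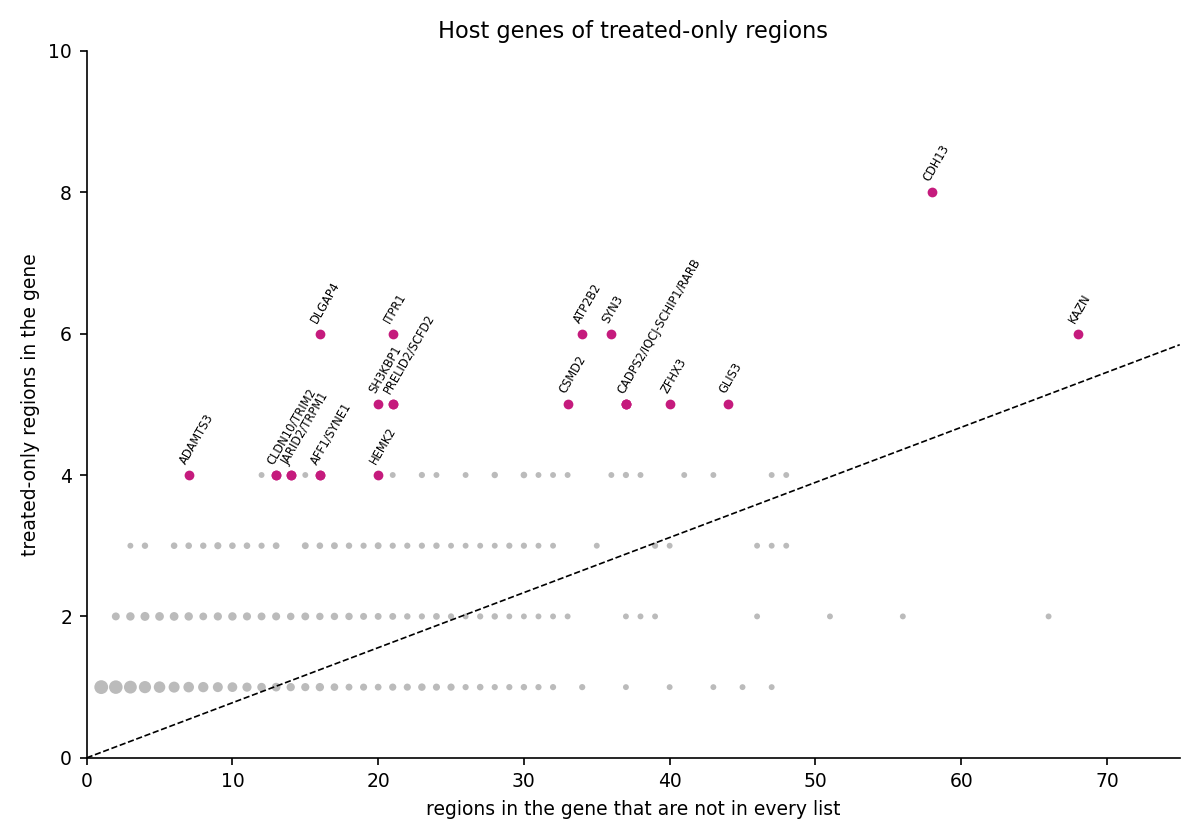
Treated-only regions in each host gene (y axis) against the gene's regions that are not in every list (x axis), grey for all 2582 host genes, larger where more genes coincide, and coloured with names for the genes with the most regions or the highest share. The dashed line marks 7.79%, the share over all genes, and CDH13 with 8 of 58 and KAZN with 6 of 68 lie nearer to it than DLGAP4 with 6 of 16 or ADAMTS3 with 4 of 7.

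Gene lists that fit the drugs and the cells showed little departure from genes as a whole. Over 18 lists with 462 genes, the treated-only share of the lists' regions not in every list ran between 0% and 14.3%, around 7.79% over all genes. For no list did the interval lie above 7.79%, and for 1 it lay below. That list was the glutamate and GABA receptors, genes of neuronal transmission, with 7 of 207 regions (3.38%, 1.65 to 6.81) beside 28 of Control_DMSO only. The 7 lay in 7 of 38 genes, among them GRM2, GRIA2 and GRIK5.

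Among the lists, the zinc-dependent histone deacetylase genes had the highest share, with an interval that includes 7.79%. The 11 zinc-dependent histone deacetylase genes held 8 treated-only regions among 56 not in every list (14.3%, 7.42 to 25.7), in 4 genes, beside 5 of Control_DMSO only. HDAC9, a class IIa enzyme, had 4 of its 30, HDAC11 2 of 3 and HDAC2 1 of 3. Genes of the corepressor complexes that carry these enzymes held 12 of 92 (13%, 7.62 to 21.4) in 10 of 26 genes, beside 10 of Control_DMSO only, with 2 each in CHD3, a NuRD remodeller, and MBD2, a reader of methylated DNA. Acetyltransferases and BET readers held 3 of 36, 1 each in KAT2B, KAT6A and KAT6B. All 3 intervals include 7.79%.

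DNA repair genes, whose proteins act on breaks such as AsiDNA imitates, stood close to 7.79% or had too few regions to tell. Homologous recombination and Fanconi genes held 7 of 98 (7.14%, 3.50 to 14), with 1 each in FANCD2 and RBBP8 among them. Non-homologous end joining genes held 2 of 33, in NHEJ1, the XLF ligation factor, and MAD2L2, a shieldin subunit. Single-strand break repair held 2 of 23, both in PARG, which removes poly(ADP-ribose), and damage checkpoint genes 1 of 17, in CHEK2.

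Of the lists of glioma and neural biology, receptor tyrosine kinases held 10 of 131 (7.63%), with 2 in ERBB4 and 1 each in PDGFRB and FGFR1. Mesenchymal regulators and markers held 10 of 156 (6.41%), with 2 in RUNX1, and glial identity genes 6 of 102 (5.88%), with 2 each in NFIA and NFIB. Axon guidance genes held 28 of 394 (7.11%), 4 of them in ROBO1, a SLIT receptor. Cadherins and protocadherins held 19 of 271 (7.01%), 8 of them in CDH13, and collagens, integrins and laminins 19 of 269 (7.06%), with 2 each in COL1A2, COL4A1 and COL14A1.

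The lists of short, inducible genes had few regions not in every list, too few to tell their shares from 7.79% over all genes. AP-1 and early growth response genes, which respond quickly to many stimuli, held 0 of 23, with an interval of up to 14.3%. Interferon-induced genes held 2 of 17 (11.8%, 3.29 to 34.3), in IRF9 and RSAD2. Cell cycle genes held 2 of 38 (5.26%, 1.46 to 17.3), in RB1 and CCND3. The BCL2 family and death receptors held 3 of 47 (6.38%, 2.19 to 17.2), in HRK, BCL2L1 and CFLAR. None of the 1558 miRNA hairpins annotated on these chromosomes lay in a treated-only region, 142 lay in regions of every list and 30 in other regions. Treated-only regions made up 7.53% of the regions not in every list, so with 30 hairpins there a count of 0 tells little.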

How the data were processed

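Chromatin accessibility was measured by NicE-seq in 16 U87 libraries, grouped by the treatment field of the labels. The submitters' processing notes name hg38, MACS2, Bowtie2, Trim Galore 0.5.0, Picard, SAMtools and deepTools. What each did, whether an input control or blacklist served and how 4 libraries became 1 list is not given in the sources used here. Per peak, the authors deposited a fold enrichment, which is a ratio of signal to local background, and p-values and q-values as −log10. The smallest −log10 q in any list was 1.3, a q of 0.050. Fold served to rank peaks within a list, q to filter and p to cut lists to equal length. The lists carry no read counts, so depth is unknown.

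Peaks on chromosomes 1 to 22 and X were merged at 1 bp of overlap. Genes, strands and promoter sequences came from RefSeq tables (GRCh38.p14). All 462 listed genes matched. A host gene is a protein-coding gene whose span overlaps a region, and a gene end has a region within 1000 bp. Positions are 1-based. Neighbour intervals count each adjacent pair once. Named were the 10 regions and 10 gene ends with the highest lowest percentile over the treated lists, 5 promoters by the same value, 15 genes by count and 10 by share (at least 4 regions), the 5 longest runs, extended to a sixth tied at 3, the 5 fullest 1 Mb windows and up to 3 genes a list. Some genes that this rule names are not reported here. The members, gene lists and settings were chosen with earlier results of these data known. The tRNA values, the neighbouring patterns and the promoters of TSC22D1, MRS2 and DNAJB13 were added after values were seen. Alternatives were a −log10 q of 5, lists of equal length, merging within 500 bp, 50% overlap, all sequences, and other windows and distances. Functions were tested on simulated data. Versions were matplotlib 3.10.9, pandas 2.3.3 and numpy 2.4.6 under Python 3.11.15.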

Additional observations from a re-analysis of the deposited data

How the results depend on the processing

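No paired analysis was possible because each group has 1 peak list, and for the same reason no library could be left out. With a −log10 q of 5 or more in all lists, 5.97% of treated-only regions were at gene ends and 15.4% within 1000 bp of a Control_DMSO peak. With that threshold in the treated lists only, 3970 regions and 1686 host genes were left, by construction fewer. Merging within 500 bp put 8.37% within 1000 bp of a Control_DMSO peak. Requiring 50% overlap gave 5.72% at gene ends and 21.6% near a Control_DMSO peak. Windows of 500 and 2000 bp gave 3.12% and 8.39% at gene ends, and distances of 500 and 5000 bp 7.48% and 53.2% near a Control_DMSO peak. The share with another treated-only region within 10 kb was 1.66 times the mean of the other three-list sets, which are smaller. Under the other settings the count ran over 5450 to 6848, host genes over 2188 to 2643 and the neighbour ratio over 1.08 to 1.18, its interval including 1 at a −log10 q of 5 in all lists (0.981 to 1.25) or in the treated lists (0.893 to 1.3) and at 50% overlap (0.989 to 1.24). The ratio of treated-only to Control_DMSO-only regions was 0.773 as reported, 1.28 and 0.307 under these thresholds and 0.530 with lists of equal length, so the order of these 2 sets turned at a −log10 q of 5 in all lists. At equal length treated-only regions (5450) still outnumbered those lacking another single list (3561 to 4955). With the threshold in the treated lists only they did not (3970 against 3453 to 4978). The 10 highest-ranked regions and the 8 promoter regions examined were picked for high percentiles in the treated lists. Settings that drop weak peaks were therefore unlikely to change them. All of these regions kept the pattern under all 6 list settings. At a −log10 q of 5, 13 of the 19 regions in the longest runs did, and the runs in PVT1, between TMEM123 and MMP7, at ANKRD62 and at EGLN3 broke. With peaks merged within 500 bp, 8 of the 10 named gene-end regions kept it, those at TRIB3 and TCEAL7 being lost. Of 23 named host genes, those whose number of regions stayed within 1.5 times were 17 (−log10 q of 5 in all lists), 14 (treated lists only), 19 (equal length) and 21 (merging within 500 bp). The causes were not tested, and unknown depth limits every count.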

Other observations

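Regions over tRNA genes, looked at after their values were seen, held a larger treated-only share only among regions that were not in every list. Of 271 merged regions over tRNA genes, 230 held a peak of every list. Of the 41 that did not, 10 were treated-only (24.4%, 13.8 to 39.3), against 7.53% of all regions not in every list. Taken over all 271, the same 10 stood close to the 3.66% of all merged regions. Regions lacking only Asi_Bel or only Asi_DMSO numbered 4 each, and those lacking only Control_Bel or held by Control_DMSO only 1 each. On chromosome 6 lay 4 of the 10, in the stretch with the large tRNA and histone gene clusters. The strongest, over TRM-CAT4-3, a methionine tRNA gene (chr6:26766061-26766547), had folds of 9.93 in Asi_Bel, 6.77 in Asi_DMSO and 7.19 in Control_Bel. TRV-AAC6-1 and TRT-AGT3-1, valine and threonine tRNA genes less than 10 kb apart, had 6.00, 6.07 and 6.95, and 5.72, 4.67 and 6.74. Other regions lay over tRNA genes on chromosomes 1, 7, 16 and 17, down to folds of 2.74, 2.89 and 3.24 at TRP-CGG1-2. At a −log10 q of 5 or more 6 of the 10 were left. Near-identical copies of tRNA genes make the placement of reads uncertain.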
